A study of Mus musculus with 4 samples.

Results

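Among natural killer (NK) cells infiltrating a mouse melanoma, 143 cells carried many transcripts of granzyme C, and they are described here as Gzmc-high NK cells. They were selected on measured UMI counts (UMI, unique molecular identifier, 1 count per captured transcript): at least 1 UMI of Ncr1, at least 2 of Ncr1 and Klrb1c together, at most 1 of Cd3d, Cd3e and Cd3g, at most 2 of C1qa, C1qb and Csf1r, and at least 5 of Gzmc, Gzmd, Gzme, Gzmf and Gzmg summed. The 143 cells came from 11224 barcodes with at least 200 genes and at most 10% mitochondrial UMIs, out of 11270 deposited barcodes. They made up part of 1000 NK cells by the same gate, of which 857 had 4 or fewer UMIs of the 5 granzymes and are called granzyme-low NK cells. The working name of the population refers to granzymes C to G, and the data go against it in part. Every one of the 143 cells had Gzmc, whereas Gzmd was found in 28, Gzme in 24, Gzmf in 8 and Gzmg in 7 of them.

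The cells came from B16F10-OVA tumours, a transplanted C57BL/6 melanoma line made to express the antigen ovalbumin, which had been grown under the skin. Live CD45+ cells were sorted and sequenced with droplet-based single-cell 3' RNA-seq in 4 libraries. The hosts were wild-type C57BL/6 mice at day 9 and at day 12 after injection, and mice labelled miR-155 TCKO, a conditional knockout that removes this microRNA from T cells (strain given as C57BL/6), at the same days. Tumours of a group (more than 4 mice) were pooled into 1 library, so no group had a replicate, and the Cre driver of the knockout is not given in the sources used here. NK cells are not the cells in which the labels place the deletion. Gzmc-high NK cells numbered 17 in the wild-type and 23 in the knockout library at day 9, and 47 in the wild-type and 56 in the knockout library at day 12.

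NK cells are innate lymphocytes that kill tumour and virus-infected cells by releasing granules that hold perforin, which opens membranes, and granzymes, which are serine proteases. Granzymes A and B are the abundant and best studied members. Granzymes C to G are rodent proteases encoded next to Gzmb, and they are known to appear in lymphocytes after strong or prolonged cytokine stimulation. Whether an NK cell is also mature, dividing or recently stimulated is usually read from receptors such as KLRG1 and the Ly49 family, from homing receptors, and from transcription factors such as KLF2.

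The 5 granzyme genes that chose the cells lie with Gzmb and Gzmn on the minus strand of chromosome 14 (mm10, chr14:56117626-56262260), 7 genes over 144.635 kb. Gzmc (ENSMUSG00000079186) lies at chr14:56231441-56234656, nearest to Gzmb at chr14:56258838-56262260. The 150 bases upstream of each start in RefSeq (GRCm38.p6, which has the coordinates of mm10) are printed because the 5 genes were selected together and differ from Gzmb there. They are written 5' to 3' on the gene's own strand, and capitals mark the octamer TGACGTCA, the cyclic AMP response element bound by the CREB and ATF family, or its match with 1 mismatch. The windows are chr14:56234658-56234807 for Gzmc, chr14:56132594-56132743 for Gzmd, chr14:56120626-56120775 for Gzme, chr14:56211408-56211557 for Gzmf, chr14:56159580-56159729 for Gzmg and chr14:56262335-56262484 for Gzmb, all on the minus strand.
Gzmc: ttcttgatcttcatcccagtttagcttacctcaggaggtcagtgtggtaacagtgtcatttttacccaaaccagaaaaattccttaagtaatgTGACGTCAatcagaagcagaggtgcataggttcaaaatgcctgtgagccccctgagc
Gzmd: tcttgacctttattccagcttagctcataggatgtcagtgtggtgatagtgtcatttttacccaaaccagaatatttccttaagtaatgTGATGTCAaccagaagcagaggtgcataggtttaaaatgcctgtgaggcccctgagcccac
Gzme: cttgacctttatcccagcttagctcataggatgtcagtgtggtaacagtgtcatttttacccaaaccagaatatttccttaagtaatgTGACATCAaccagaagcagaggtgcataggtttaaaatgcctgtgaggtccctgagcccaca
Gzmf: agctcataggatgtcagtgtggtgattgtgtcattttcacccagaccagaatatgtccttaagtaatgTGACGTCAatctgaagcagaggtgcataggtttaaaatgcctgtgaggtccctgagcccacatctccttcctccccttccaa
Gzmg: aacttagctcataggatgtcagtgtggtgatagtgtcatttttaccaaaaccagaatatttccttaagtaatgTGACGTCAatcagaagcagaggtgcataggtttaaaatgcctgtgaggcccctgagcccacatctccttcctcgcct
Gzmb: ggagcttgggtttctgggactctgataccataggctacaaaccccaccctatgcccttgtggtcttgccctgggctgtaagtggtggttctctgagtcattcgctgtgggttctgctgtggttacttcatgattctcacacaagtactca

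The octamer TGACGTCA (palindromic, so both strands give the same match) was present in Gzmc at position -57 from the start, in Gzmf at -82 and in Gzmg at -77. Counted from 1 at the 5' end of the octamer, Gzmd carried the substitution C4T and Gzme the substitution G5A. Gzmb had no match within 1 mismatch in the 150 bases. Over 250 bases upstream, 508 of 32851 RefSeq promoters (1.55%) held the octamer. The RUNX core ACCACA, searched on both strands, had 2 matches in each of the 6 promoters and was present in 14.0% of all promoters. These matches describe letters and not bound sites. In the 250 bases upstream of the start, the aligned bases of Gzmc were 86.0% to 88.8% identical to the 4 other selected genes and 72.0% identical to Gzmb. Gaps and unaligned ends were left out of these percentages. The value for Gzmb may therefore cover only part of the 250 bases and is not the share of the sequence in common.

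Because the assay reads the 3' end, similarity there decides which gene a read can be given to. Among the 341 windows of 60 bases in the last 400 bases of the longest GENCODE transcript, 0 of those of Gzmc occurred in another of the 7 genes, compared with 23 for Gzmd, 14 for Gzme, 22 for Gzmf and 42 for Gzmg. Over the aligned bases of the transcripts, again without gaps and unaligned ends, Gzmd and Gzme were 94.98% identical. Gzmc was 79.7% to 81.2% identical to Gzmd, Gzme, Gzmf and Gzmg by this measure. Counts of Gzmc can therefore be told apart from those of its neighbours, and counts of Gzmd to Gzmg are uncertain to the extent that reads fell in shared stretches. How such reads were counted is not given in the sources used here. If they were left out, Gzmd to Gzmg are counted too low and Gzmc is not, which would raise the share of Gzmc given below.

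Gzmc dominated the granzyme signal in every library. It gave 82.9% of the 5 genes' UMIs over all Gzmc-high cells, from 68.9% in the wild-type library at day 12 to 95.6% in the knockout library at day 9. Its summed level was 8197, 8221, 6059 and 8082 CPM (UMIs of the gene per 1000000 UMIs of the class) in the wild-type and knockout libraries at day 9 and the wild-type and knockout libraries at day 12, the order used for 4 values throughout. Granzyme-low cells, which the selection holds down, had 36.2, 30.8, 57.6 and 55.8 CPM. The 5 granzymes together made up 0.971%, 0.860%, 0.879% and 0.905% of all UMIs of the Gzmc-high cells.

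The single cells spread over a wide range. The sum of the 5 granzymes ran from 5 to 1455 UMIs with a median of 34, and 37 cells had 100 or more. In 1 cell of the knockout library at day 12, Gzmc alone took up 5.53% of all UMIs. Just inside the threshold, with 5 or 6 UMIs, were 2, 2, 6 and 3 cells, and just outside it, with 3 or 4 UMIs, were 3, 2, 13 and 4 cells. The threshold therefore divides a continuous range in the wild-type library at day 12 more than in the others.

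**Figure D1:**
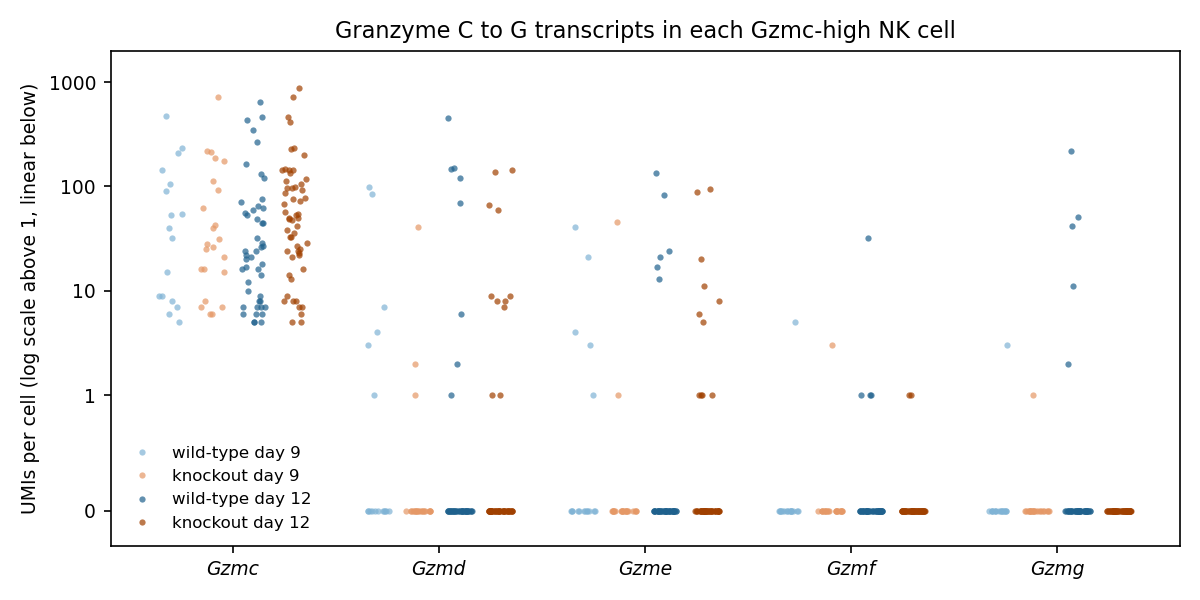
Each point is 1 Gzmc-high NK cell, placed by its UMIs of Gzmc, Gzmd, Gzme, Gzmf or Gzmg (vertical axis, logarithmic above 1 and linear below) and coloured by library. All 143 cells carry Gzmc, while most sit at 0 for the other 4 genes, and the Gzmg counts come largely from 1 cell of the wild-type library at day 12.

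The other granzymes appeared on top of Gzmc and not in its place. In 108 of 143 cells Gzmc was the only one of the 5 genes detected. Gzmd or Gzme accompanied it in 32 cells and both did in 20, and no cell had Gzmd without Gzmc. Cells with Gzmd or Gzme had a median of 119 Gzmc UMIs per 10000 UMIs, compared with 28.9 in cells without them, and this held in each library (125 and 19.7, 101 and 44.3, 137 and 27.6, and 106 and 30.9). The former cells were also deeper, with a median of 16490.5 against 9311 UMIs over all libraries (though 9036.5 against 9716 in the wild-type library at day 9), and the part of depth in their detection was not tested. Gzmd reached 1083, 174, 1623 and 630 CPM and Gzme 383, 186, 496 and 330 CPM. Gzmg had 331 UMIs in all, of which 221 lay in 1 cell of the wild-type library at day 12, and 0 in the 56 cells of the knockout library at day 12, which allows a share of cells with a UMI of up to 6.38% (upper end of the exact 95% binomial interval). Gzmn, the remaining gene between them, had 0 UMIs in all 4 libraries of both classes.

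The 4 libraries held 1777, 3738, 3673 and 2036 kept barcodes, with between 18783490 and 33902064 UMIs per library before filtering. Pairs of libraries shared between 4 and 16 barcode sequences, and 0 of the 143 barcodes occurred in another library. Gzmc-high cells were deeper than granzyme-low cells in every library. Their median UMIs were 9716, 9311, 10606 and 11329, against 5537, 3986.5, 3772 and 4316. A deeper cell passes a threshold of 5 UMIs more readily, so each comparison was also made after thinning every cell to 3000 UMIs at random before the gate. Doublet scoring placed 0, 1, 3 and 0 of the Gzmc-high cells among the barcodes with the highest scores.

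By markers that the selection did not use, the cells carried genes of NK cells. Klrd1, the CD94 partner chain of NKG2 receptors, stood at 1160, 1079, 955 and 1099 CPM, and Nkg7, Tyrobp, Fcer1g and Il2rb were each above 350 CPM in all 4 libraries. Eomes and Tbx21, the T-box factors of NK cells, were present at 142, 63.5, 116 and 59.95 CPM and at 43.8, 47.6, 44.2 and 72.5 CPM. Of genes that mark group 1 innate lymphoid cells (ILC1, tissue-resident relatives of NK cells), Itga1 had 3 UMIs in all 143 cells, Itgae 6 and Zfp683 2. The whole tissue-resident and ILC1 list of 19 genes summed to 1040, 1602, 797 and 816 CPM, against 1782, 1160, 941 and 1424 CPM in granzyme-low cells, so that it was higher in Gzmc-high cells of the knockout library at day 9 and lower in those of the others. Cxcr6, which ILC1 share with activated lymphocytes, was at 43.8, 258, 32.3 and 51.6 CPM, highest in the knockout library at day 9. In tests given below, 3 of 15 genes of the list (Cxcr6, Tnfsf10 and Rora) were higher than in granzyme-low cells with Ly49, and 1 was lower. Compared with granzyme-low cells without Ly49, 0 of 12 were higher and 4 lower. The fraction of cells with 2 or more UMIs of Ly49 (Klra) genes was 76.5%, 47.8%, 72.3% and 76.8%, against 72.9%, 81.3%, 82.9% and 82.4% of granzyme-low cells. The lowest of these shares, in the knockout library at day 9, has an exact 95% interval of 26.8% to 69.4%, which overlaps the intervals of the other Gzmc-high libraries. That interval lies below the one of granzyme-low cells in the same library, 75.2% to 86.5%, a difference that was not tested.

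The gate itself limits Cd3d, Cd3e and Cd3g, so their low level is no finding. Over the 6 other T cell genes of the marker list found in the files the summed level ran from 25.1 to 76.6 CPM in Gzmc-high and from 53.9 to 102 CPM in granzyme-low cells. Trac, Trbc1, Trbc2 and Trdc were not used here. Macrophage transcripts were present in both classes: the 10 genes of that list summed to between 202 and 690 CPM in Gzmc-high and between 475 and 2546 CPM in granzyme-low cells, with no gene at 0 over all 4 libraries. Dendritic cell genes summed to between 408 and 1983 CPM and between 813 and 3427 CPM, 1 of 8 being at 0 in Gzmc-high cells. B cell, neutrophil and melanoma lists stayed at or below 11.9 CPM in Gzmc-high cells.

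Granzyme transcripts in macrophages, which should lack them, give the background. No cell of a macrophage gate reached 5 UMIs of the 5 granzymes, out of 150, 946, 1120 and 531 cells with median depths of 10183.5, 10445.5, 9243 and 11509 UMIs. Those cells had at least 1 such UMI in 8.67%, 2.33%, 5.36% and 14.3% of cases. CD8 T cells are lymphocytes that can make these granzymes, so they are no measure of background. In a CD8 T cell gate without Ncr1, 63 of 757 cells of the wild-type library at day 9 had 5 or more, against 4 of 415, 5 of 262 and 1 of 72 in the others. The NK gate as a whole held 19.5%, 56.9%, 67.3% and 71.9% of each library's UMIs of the 5 granzymes, and the CD8 T cell gate 28.4%, 5.28%, 1.03% and 0.373%.

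The share of NK cells that were Gzmc-high was greatest in the knockout library at day 12. It was 10.6% in the wild-type library at day 9 (17 of 161 cells, exact Clopper-Pearson 95% interval 6.27% to 16.4%) and 10.4% in the knockout library at day 9 (23 of 221, 6.71% to 15.2%). At day 12 it was 12.4% in the wild-type library (47 of 380, 9.23% to 16.1%) and 23.5% in the knockout library (56 of 238, 18.3% to 29.4%). The intervals at day 9 overlap almost wholly and those at day 12 do not overlap. With 1 library per group there is no test of either difference, and the intervals cover counting error only, not the spread between mice or preparations.

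Counting the granzymes after thinning kept that order at day 12. With the NK gate on all UMIs and the granzyme sum taken at 3000 UMIs per cell, the shares were 8.70%, 6.10%, 11.8% and 21.9%. This count was chosen after seeing the data, because thinning before the gate also loses NK cells through Ncr1 and Klrb1c. With everything thinned first the shares were 7.52%, 6.42%, 10.4% and 16.6%, and the intervals of the day 12 libraries, 6.62% to 15.3% and 11.1% to 23.3%, then overlap. Out of all kept cells, Gzmc-high NK cells made up 0.957%, 0.615%, 1.28% and 2.75%, shares that also move with every other sorted CD45+ cell.

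**Figure D2:**
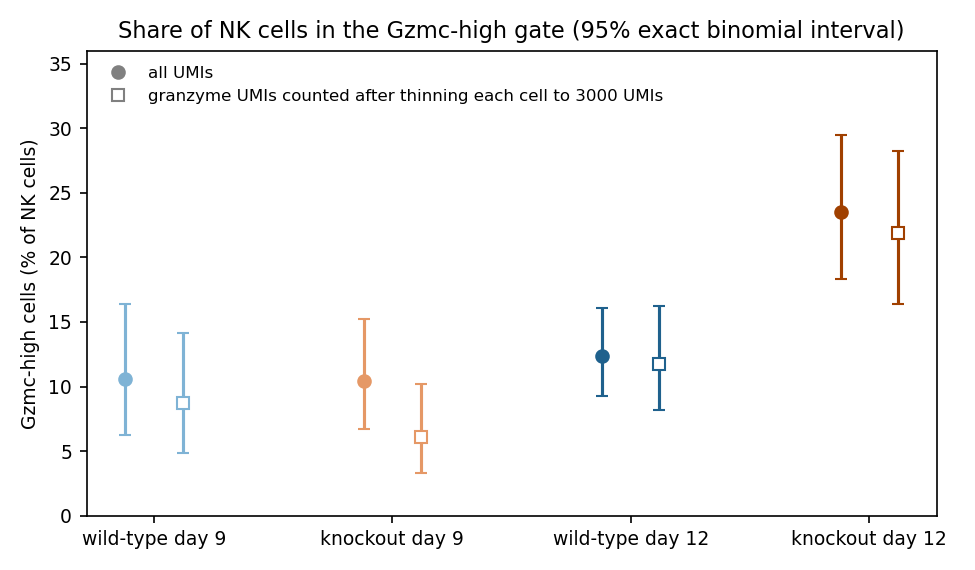
The percentage of NK cells in the Gzmc-high gate is plotted for each library, with all UMIs (filled circles) and with the granzyme sum taken after thinning to 3000 UMIs (open squares). Bars are exact 95% binomial intervals, and the knockout library at day 12 is highest at 23.5% and 21.9%.

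What else set these cells apart was asked by comparing summed UMIs of Gzmc-high and granzyme-low NK cells within each library (edgeR quasi-likelihood test with the library as block, 4 pairs, Benjamini-Hochberg adjusted over all genes tested). The 13 genes of the selection were left out. Of 7328 genes tested, 203 (2.77%) were higher and 223 (3.04%) lower in Gzmc-high cells at an adjusted p under 0.05, and the median log2 difference over all genes was -0.01. Without the knockout library at day 12, which holds the most cells, the calls fell to 50, of which 18 were higher and 32 lower. After thinning they numbered 50 higher and 82 lower among 3562 genes tested.

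Spp1 was among the most strongly raised genes. It is the gene of osteopontin, a secreted phosphoprotein and cytokine. It stood at 3031, 686, 1261 and 2321 CPM in Gzmc-high cells and at 142, 84.2, 217 and 276 CPM in granzyme-low cells. The groups did not overlap. The log2 difference was 3.28 ± 0.25 (SE, n = 4 libraries, edgeR adjusted p = 0.00011), and it was 3.45 after thinning. Ccl1, a chemokine that binds CCR8, was at 76.6, 246, 274 and 364 CPM against 1.00, 4.11, 14.6 and 40.4 CPM. Its log2 difference was 4.12 ± 0.32 (edgeR adjusted p = 0.00011), and no Gzmc-high library lay below a granzyme-low one. Only 11.8%, 13.6%, 4.44% and 7.14% of thinned Gzmc-high cells had a Ccl1 UMI, whereas Spp1 was found in 70.6%, 36.4%, 44.4% and 58.9%, against 11.1%, 5.2%, 10.6% and 17.2% of granzyme-low cells.

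Ccl5, a chemokine that NK cells and effector T cells normally make in abundance, was the strongest loss among abundant genes. Its level was 2139, 968, 603 and 679 CPM in Gzmc-high and 6804, 7486, 6040 and 7314 CPM in granzyme-low cells. The highest Gzmc-high library lay far below the lowest granzyme-low one. The log2 difference was -2.82 ± 0.24 (edgeR adjusted p = 0.00011), and -2.51 after thinning. A Ccl5 UMI was found in 64.7% (11 of 17), 72.7% (16 of 22), 27 of 45 and 44.6% (25 of 56) of thinned Gzmc-high cells. In thinned granzyme-low cells the shares were 91.7%, 95.3%, 93.0% and 92.4%. Without thinning they were 100%, 87.0%, 76.6% and 76.8% in Gzmc-high against 96.5%, 98.0%, 95.8% and 96.2% in granzyme-low cells. Fewer cells thus had the transcript in every library except the wild-type library at day 9, where every Gzmc-high cell had it before thinning. Ccl3, another chemokine, was also lower, by a log2 difference of -1.06 (edgeR adjusted p = 0.032) with overlapping groups, but after thinning it was higher by 0.82 (edgeR adjusted p = 0.038). Xcl1 (log2 difference 0.55), Ccl4 (-0.85) and Ifng (-0.70) did not pass. After thinning Xcl1 passed (1.07), and Ccl4 (0.34) and Ifng (0.35) had the opposite sign without passing. With all UMIs, 2 of the 14 chemokine and cytokine genes tested were higher and 2 lower.

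Among the proteins of the killing granule, Gzmb rose with Gzmc. Gzmb reached 4443, 1166, 2967 and 2837 CPM, compared with 993, 741, 1727 and 1453 CPM, so that it was higher in every library although the groups overlapped. The log2 difference was 1.17 ± 0.20 (edgeR adjusted p = 0.0074). It kept its direction in all 15 alternatives and passed in 13, the exceptions being the fits without the knockout library at day 12 and without the library block. Perforin (Prf1) was at 241, 55.5, 96.9 and 226 CPM against 41.2, 58.5, 84.3 and 120 CPM, lower in 1 library of 4, and did not pass (log2 difference 0.92 ± 0.32, edgeR adjusted p = 0.12). Gzma varied most, with 25389 CPM in the wild-type library at day 9 and 2165, 3693 and 3430 CPM in the others, against 5016 to 6191 CPM in granzyme-low cells, and did not pass (log2 difference -0.18 ± 0.46).

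Of 16 genes of the granule machinery, 2 passed, both upward. Cst7, which encodes cystatin F, an inhibitor of the cathepsins that activate granzymes, was at 394, 440, 328 and 409 CPM against 202, 289, 312 and 217 CPM. Its log2 difference was 0.66 ± 0.16 (edgeR adjusted p = 0.033), and 0.60 after thinning, where it did not pass (edgeR adjusted p = 0.12). Serpinb9b, an intracellular serpin, differed by 1.28 (edgeR adjusted p = 0.045) and by -0.29 after thinning, where it did not pass. After thinning 0 of 15 granule genes were higher and 1 lower, and without the wild-type library at day 9 there were 1 and 2 of 16. Cma1, the chymase gene of the same chromosomal cluster, moved the other way, with 2 UMIs in all Gzmc-high cells against 203 in granzyme-low cells, and passed downward (edgeR adjusted p = 0.0028). Of the 14 genes listed as neighbours of the granzyme locus, 3 could be tested.

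**Figure D3:**
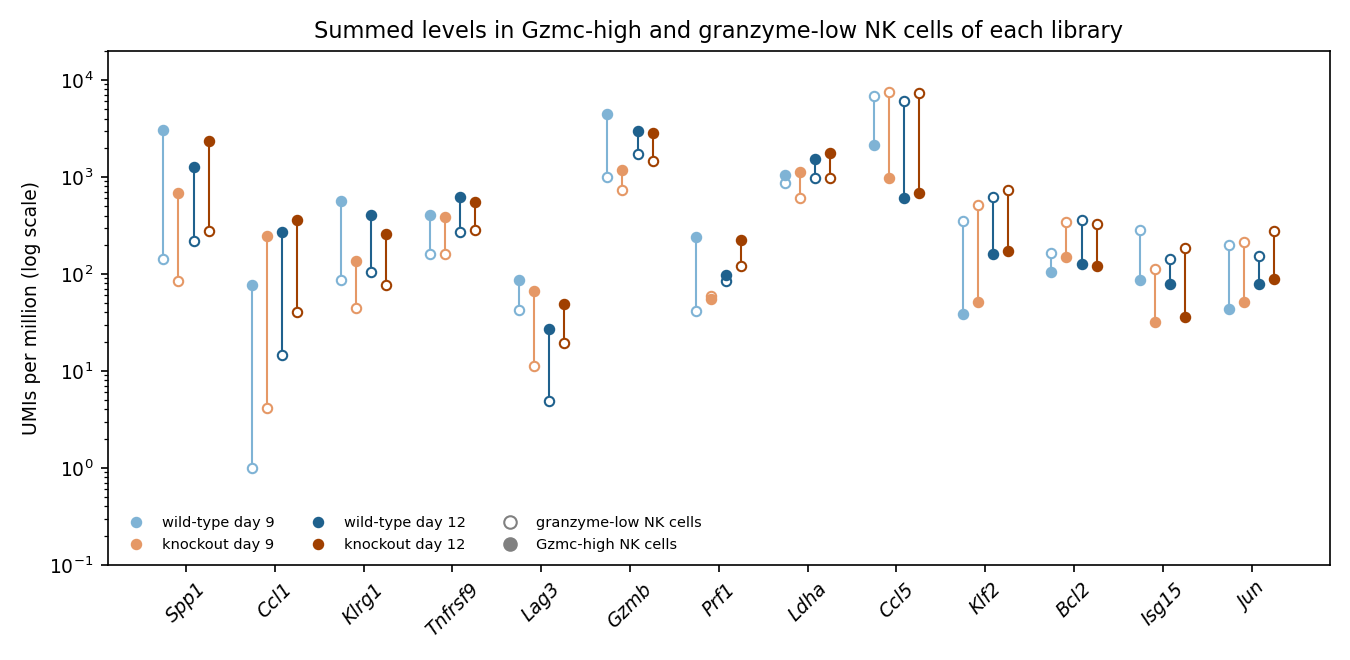
Levels in CPM (log axis) of 13 genes in Gzmc-high (filled) and granzyme-low (open) NK cells, joined within each of the 4 libraries. Spp1, Ccl1, Klrg1 and Tnfrsf9 lie higher and Ccl5, Klf2, Bcl2, Isg15 and Jun lower in Gzmc-high cells of every library, while Prf1 crosses in the knockout library at day 9.

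Receptors of stimulation and inhibition were divided. Klrg1, an inhibitory receptor of mature NK cells, was at 564, 135, 406 and 261 CPM against 87.4, 44.1, 105 and 77.0 CPM, without overlap (log2 difference 2.06 ± 0.18, edgeR adjusted p = 0.00011). Of 16 checkpoint and co-receptor genes tested, 4 were higher and 1 lower. Tnfrsf9, which encodes 4-1BB, a receptor induced by stimulation, was at 405, 389, 619 and 549 CPM against 161, 160, 268 and 284 CPM (log2 difference 1.21 ± 0.11, edgeR adjusted p = 0.00019). Lag3 (1.75), Havcr2 (TIM-3, 3.03) and Slamf7 (0.65) were the other inhibitory or activating receptors that rose, and Havcr2 rested on 32 UMIs in Gzmc-high cells with 0 in the knockout library at day 9. The co-stimulatory receptor Cd27, which NK cells lose with maturation, fell (-1.33 ± 0.20, edgeR adjusted p = 0.0033). Pdcd1 and Tigit, with 3 UMIs each in the Gzmc-high cells, were too scarce to test.

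Apart from Klrg1, the lectin and Ly49 receptors that changed went down. Of 10 lectin receptor genes outside the Ly49 family, Klrg1 was higher and 4 were lower. Klrk1, which encodes NKG2D, was at 492, 726, 578 and 574 CPM against 935, 1121, 960 and 943 CPM (log2 difference -0.71 ± 0.09, edgeR adjusted p = 0.0012). Klri2, Klrc2 and Klre1 were the others. Of 9 Ly49 genes, Klra4 (Ly49D, an activating member) was at 148, 135, 258 and 350 CPM against 821, 911, 740 and 756 CPM and differed by -1.81 ± 0.22 (edgeR adjusted p = 0.0010). Klra8 (Ly49H) differed by -1.22 and the remaining 7 did not pass.

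Genes that mark mature circulating NK cells leaned lower. Of 16 tested, 6 fell and 1 rose, with a median log2 difference of -0.90 and 4 positive values. Against granzyme-low cells without Ly49, 2 of 11 fell and 1 rose, with a median of 0.01 and 6 positive values. Klf2, the transcription factor that maintains expression of the S1P receptors, was at 38.3, 51.6, 161 and 171 CPM against 355, 511, 628 and 739 CPM. The log2 difference was -2.37 ± 0.19 without overlap (edgeR adjusted p = 0.00011). S1pr1 had 2 and S1pr5 3 UMIs in all Gzmc-high cells, against 66 and 87 in granzyme-low cells, and both passed downward. In all, 9 of the 16 chemokine and homing receptor genes tested fell and 0 rose, with a median log2 difference of -0.95. Among them were Itgb7, Cxcr3, Cd44, Selplg, Ccr7 and Itga4. Without the knockout library at day 12, 2 of 16 passed downward, beside 32 of 6757 over all genes. Without the knockout library at day 9 or the wild-type library at day 12 it was 4 of 15, beside 99 of 6904 and 139 of 7057.

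Of 26 transcription factor genes of NK cells and ILC1, 3 fell and 1 rose. Beside Klf2, the factors Tcf7 (TCF-1, kept by less differentiated lymphocytes, -1.61 ± 0.30, edgeR adjusted p = 0.010) and Nr4a2 were lower. Zbtb32, a factor of proliferating NK cells, was at 16.4, 0, 127 and 30.7 CPM against 2.01, 1.03, 7.89 and 5.78 CPM (3.34 ± 0.41, edgeR adjusted p = 0.0011). In the knockout library at day 9, where 3 UMIs amount to 11.9 CPM, its count of 0 gives no direction. Eomes differed by -0.71 and Tbx21 by -0.49, and neither passed. Of 15 tissue-resident and ILC1 genes, Cd7 was lower and 0 were higher, and of 11 genes of the TGF-beta response 0 passed in either direction.

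Cytokine receptors were lower where they changed, with 1 exception. Ifngr1, the ligand-binding chain of the interferon-gamma receptor, was at 520, 440, 357 and 443 CPM against 885, 1016, 794 and 891 CPM (log2 difference -1.002 ± 0.11, edgeR adjusted p = 0.00051). Il18r1 (-1.39) and Ifnar1 (-0.78) fell as well. Il2ra, the high-affinity chain of the IL-2 receptor, rose (2.22 ± 0.58, edgeR adjusted p = 0.046) on 49 UMIs, 0 of them in the wild-type library at day 9. Of 18 genes of the STAT5 and IL-2 or IL-15 response, Bcl2, Socs2 and Pim2 were lower and Il2ra higher. Bcl2, the survival protein, was at 104, 151, 127 and 121 CPM against 166, 344, 362 and 325 CPM (-1.25 ± 0.15, edgeR adjusted p = 0.0010). Of 17 reported targets of miR-155, 0 rose and 3 fell, Ifngr1 among them with Peli1 and Sla.

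Cell cycle genes summed higher in 3 of the 4 libraries. The list of 26 genes summed to 958, 3839, 3391 and 3159 CPM in Gzmc-high and to 1582, 575, 1713 and 1120 CPM in granzyme-low cells, lower in the wild-type library at day 9 and higher in the others. In the fit over all libraries, all 26 had a positive log2 difference, with a median of 1.57 against -0.01 over all genes tested, and 7 of the 26 passed upward. Tyms, the thymidylate synthase of DNA replication, was at 16.4, 115, 100 and 123 CPM against 25.1, 6.16, 32.8 and 21.2 CPM. It was higher in 3 libraries and lower in the wild-type library at day 9 (log2 difference 2.09 ± 0.41, edgeR adjusted p = 0.014). Top2a, the topoisomerase of dividing cells, was at 16.4, 238, 218 and 243 CPM against 50.2, 8.21, 83.7 and 47.2 CPM, with the same exception. The calls depended on single libraries, as did those over all genes. Without the knockout library at day 9, 0 of 26 passed, beside 61 of 6904 genes higher over all. Without that at day 12 it was 0 of 26, beside 18 of 6757. Without the wild-type library at day 12, 1 passed, beside 84 of 7057. Without the wild-type library at day 9, 22 passed, beside 267 of 7018.

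Counted per cell after thinning to 3000 UMIs, at least 2 UMIs of 8 division genes (Mki67, Top2a, Cdk1, Ccnb1, Ccnb2, Ccna2, Birc5, Ube2c) were found in 11.8%, 18.2%, 33.3% and 23.2% of Gzmc-high cells. The same held for 7.64%, 0.524%, 9.25% and 5.52% of granzyme-low cells, and without thinning for 11.8%, 26.1%, 38.3% and 42.9% against 9.72%, 1.01%, 8.41% and 7.14%. Thinning left out 0, 1, 2 and 0 Gzmc-high and 0, 7, 106 and 37 granzyme-low cells with fewer UMIs. The shares were higher in Gzmc-high cells in all 4 libraries, and in the wild-type library at day 9 by 2 of 17 cells against 11 of 144.

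Glycolysis and protein folding genes were raised by smaller amounts. Of 21 glycolysis and hypoxia genes 9 rose and 0 fell, with a median log2 difference of 0.46. Ldha, lactate dehydrogenase A, was at 1045, 1118, 1545 and 1759 CPM against 870, 607, 971 and 965 CPM without overlap (0.71 ± 0.10, edgeR adjusted p = 0.0028), and Gapdh differed by 0.71. Of 17 genes of protein folding in the endoplasmic reticulum, 9 rose and 0 fell (median 0.58). Hsp90b1, the chaperone GRP94, was at 410, 377, 500 and 453 CPM against 283, 278, 323 and 250 CPM (0.66 ± 0.11, edgeR adjusted p = 0.0070). Nucleolar and ribosome assembly genes gave 3 of 18 higher, among them Ncl, and 0 of 23 respiratory chain genes passed in either direction. Without the knockout library at day 12, 0 of 20 glycolysis genes and 0 of 17 folding genes passed, with medians of 0.47 and 0.57. Over all genes, 18 of 6757 were higher in that fit. After thinning 3 of 13 and 0 of 16 passed, with medians of 0.36 in both, beside 50 of 3562 genes higher over all.

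Interferon-induced and immediate early genes were lower. Of 18 type I interferon response genes 7 fell and 0 rose, with a median log2 difference of -1.23 and no positive value. Rtp4, an interferon-induced gene, was at 43.8, 23.8, 28.9 and 19.5 CPM against 143, 79.0, 83.7 and 88.6 CPM (-1.76 ± 0.21, edgeR adjusted p = 0.00094). Isg15, a ubiquitin-like interferon effector, was at 87.5, 31.7, 78.2 and 36.2 CPM against 282, 113, 141 and 185 CPM, without overlap (-1.58 ± 0.23, edgeR adjusted p = 0.0028). Irf7 and Zbp1 fell too, as did Irf1 and Gbp2 of the interferon-gamma list, where 4 of 18 fell and 0 rose. Of 17 immediate early and stress genes, 7 fell and 0 rose. Without the knockout library at day 12, 4 of 17 type I interferon, 0 of 17 interferon-gamma and 1 of 17 immediate early genes passed. Over all genes, 32 of 6757 were lower in that fit. Jun, a subunit of AP-1, was at 43.8, 51.6, 78.2 and 87.8 CPM against 198, 213, 154 and 279 CPM (-1.56 ± 0.19, edgeR adjusted p = 0.00094).

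Some macrophage and dendritic cell genes were also lower. Of 8 macrophage genes tested, 5 were lower in Gzmc-high cells (Ctss, Lyz2, Fcgr1, Cxcl9 and Cd68), and of 6 dendritic cell genes Cd209a and Ccr7 were. Without the knockout library at day 12, 0 of 7 and 0 of 5 passed, beside 32 of 6757 genes lower over all. The dendritic cell list summed lower in Gzmc-high cells of 3 libraries and higher in those of the wild-type library at day 12 (1983 against 829 CPM). Lyz2, lysozyme of myeloid cells, was at 60.2, 234, 350 and 237 CPM against 130, 1739, 573 and 867 CPM, and Cd209a had the largest fall of the genes named by rule (-3.03 ± 0.51, edgeR adjusted p = 0.0070). When cells with any UMI of the T cell or macrophage genes of the gate were left out, Lyz2 differed by -0.09. In that comparison 3 of 13 type I interferon genes passed downward with a median of -0.69, 6 of 15 immediate early genes fell and 1 rose, and 264 genes passed in all. After thinning, Isg15 (-0.91) and Irf7 (-1.06) no longer passed, and 1 of 11 interferon genes and 5 of 12 immediate early genes did. The part of myeloid transcripts in the interferon result was otherwise not tested.

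**Figure D4:**
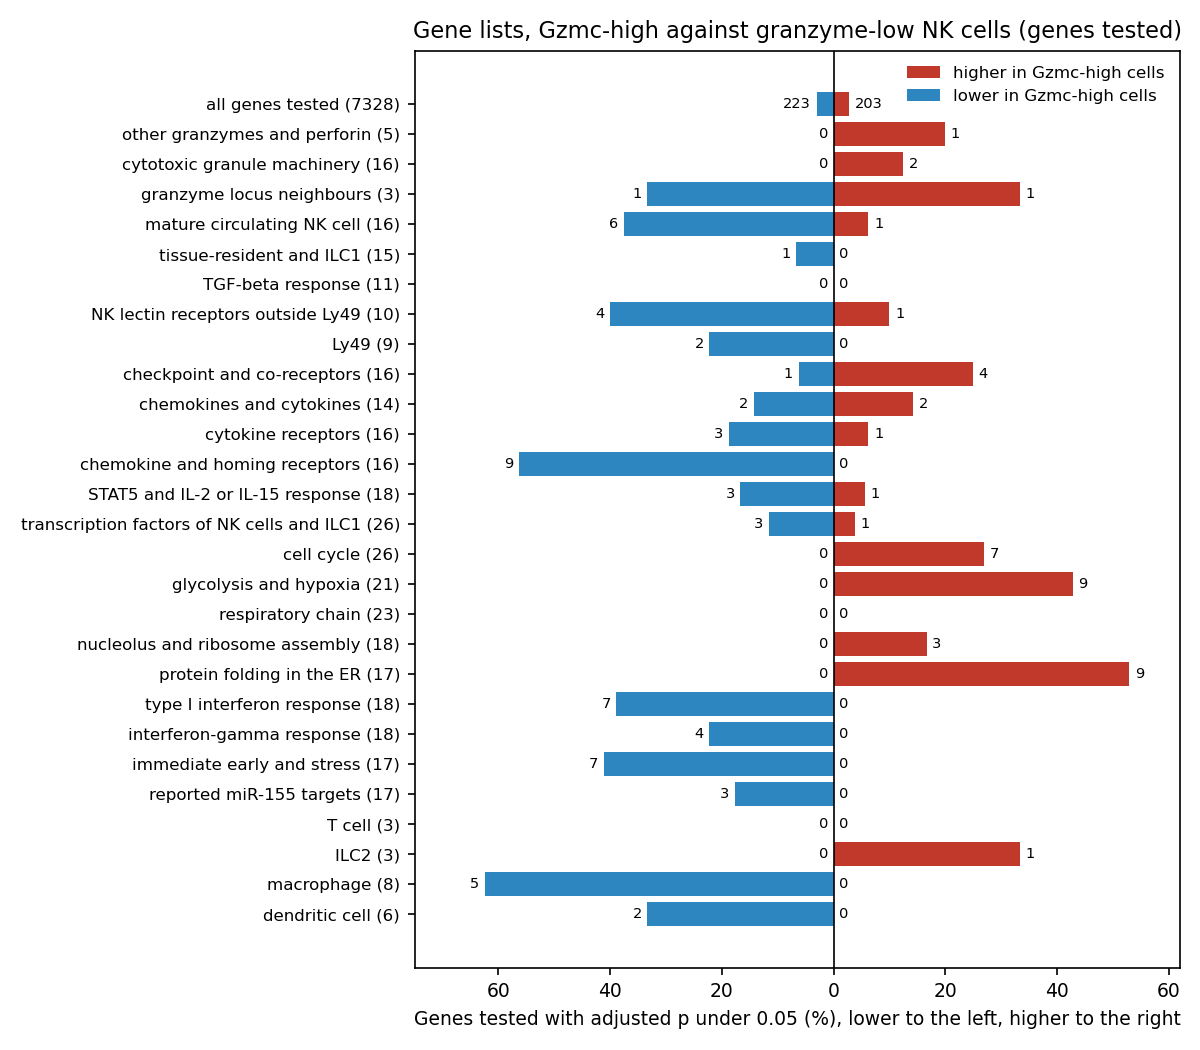
For each gene list (genes tested in brackets), the bars give the percentage of tested genes that passed at an adjusted p under 0.05 upward (right, red) and downward (left, blue) in Gzmc-high against granzyme-low NK cells, with the number of genes at the bar's end. Cell cycle, glycolysis and protein folding lists lie to the right and homing, interferon, immediate early and macrophage lists to the left, beside 2.77% and 3.04% over all genes.

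The genes named by rule (15 in each direction with the largest difference among those with at least 50 CPM and one direction in all libraries) included several outside these lists. AA467197, also known as Nmes1, was at 460, 202, 440 and 310 CPM against 51.2, 60.6, 72.8 and 71.2 CPM (2.45 ± 0.20, edgeR adjusted p = 0.00011). Nrgn, neurogranin, a calmodulin-binding protein, was at 181, 202, 144 and 205 CPM against 43.2, 24.6, 43.1 and 58.7 CPM (2.11 ± 0.21). Both were without overlap. Ccdc184 (2.18, the gene that passed of 3 tested on a list for group 2 innate lymphoid cells), Gadd45g (2.04), Tmsb15a (1.98), 2900026A02Rik (1.96), Serpinb6a (1.73), the uridine phosphorylase Upp1 (1.70) and Ccdc34 (1.49) were also higher, with Tk1 (2.16) and Dut (1.498) of nucleotide synthesis. Downward the rule gave Gm26740 (-2.24), Ms4a6c (-2.001), Wfdc17 (-1.90), Ssh2 (-1.89), the interferon-induced Ifitm3 (-1.78), the MAX partner Mxd1 (-1.76), Gm12216 (-1.70), the adhesion molecule Icam2 (-1.68) and Jakmip1 (-1.64), beside Cd209a, Ccl5, Klf2, Klra4, Rtp4 and Lyz2.

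Granzyme-low NK cells are themselves mixed, so Gzmc-high cells were compared with those lacking Ly49 (165 cells with at most 1 Klra UMI) and those carrying it (692 cells) separately, again within library and without Klra genes. Against Ly49-negative cells, 138 of 3752 genes were higher (3.68%) and 120 lower (3.2%). Against Ly49-positive cells, 200 of 6756 were higher (2.96%) and 205 lower (3.03%). Both comparisons use the same Gzmc-high cells, which were not split by Ly49 and include cells with and without it. The part of the Ly49-negative Gzmc-high cells in either comparison was not tested. Spp1 was higher in both (log2 difference 4.91 against Ly49-negative and 3.07 against Ly49-positive cells), as were Klrg1 (3.50 and 1.87), AA467197 (2.49 and 2.47) and Tnfrsf9 (1.56 and 1.15). Ccl5 (-2.69 and -2.82) and Klf2 (-2.15 and -2.39) were lower in both.

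Cd7 was lower in both comparisons, and the other tissue-residence genes that passed differed between them, a difference that was not tested. Against Ly49-negative cells, 4 of 12 tissue-resident and ILC1 genes were lower and 0 higher, including Il7r (-2.10), Tmem176a (-1.58) and Tmem176b (-1.47) with Cd7 (-1.89). Against Ly49-positive cells, 3 of 15 were higher, Cxcr6 (4.34 ± 0.66, edgeR adjusted p = 0.0027), Tnfsf10 (TRAIL, 1.96) and Rora (1.90), and Cd7 was lower. Cxcr6 lay at 163, 131, 103 and 153 CPM in Ly49-negative and at 16.6, 0, 0.716 and 2.36 CPM in Ly49-positive cells, with the Gzmc-high values given above between them in 3 libraries. Perforin passed only against Ly49-negative cells (Prf1, 2.11 ± 0.49, edgeR adjusted p = 0.033, against 0.75 for Ly49-positive cells), and the difference between the comparisons was not tested. Cell cycle genes gave 11 of 21 higher against Ly49-negative and 5 of 26 against Ly49-positive cells, and 0 lower in either.

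Pooled levels of Ccl5 and Klf2 fell with the amount of granzyme in the cell, while those of Spp1 and Gzmb rose unevenly. The cells were grouped by their sum of the 5 granzymes into 711 with 0, 146 with 1 to 4, 47 with 5 to 19, 59 with 20 to 99 and 37 with 100 or more UMIs, all libraries together. Across these classes Ccl5 went from 7478 through 4341, 2186 and 511 to 480 CPM and Klf2 from 624 through 376, 207 and 132 to 104 CPM. In these pooled values, cells with 1 to 4 granzyme UMIs, which count as granzyme-low, lay below cells with none. The ranges over libraries overlapped, however. Ccl5 ran from 3143 to 7485 CPM with 1 to 4 and from 6616 to 8841 CPM with 0 granzyme UMIs, and Klf2 from 195 to 507 and from 399 to 825 CPM. Spp1 was at 144, 336, 295, 1329 and 3153 CPM, and Gzmb was at 1225, 1579, 2100 and 1693 CPM and at 4425 CPM in the last class. Depth rose alongside, in the knockout library at day 12 from a median of 4027 to 18488 UMIs, and its part was not tested. Since the classes repeat the measure of the selection, these values are a description.

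**Figure D5:**
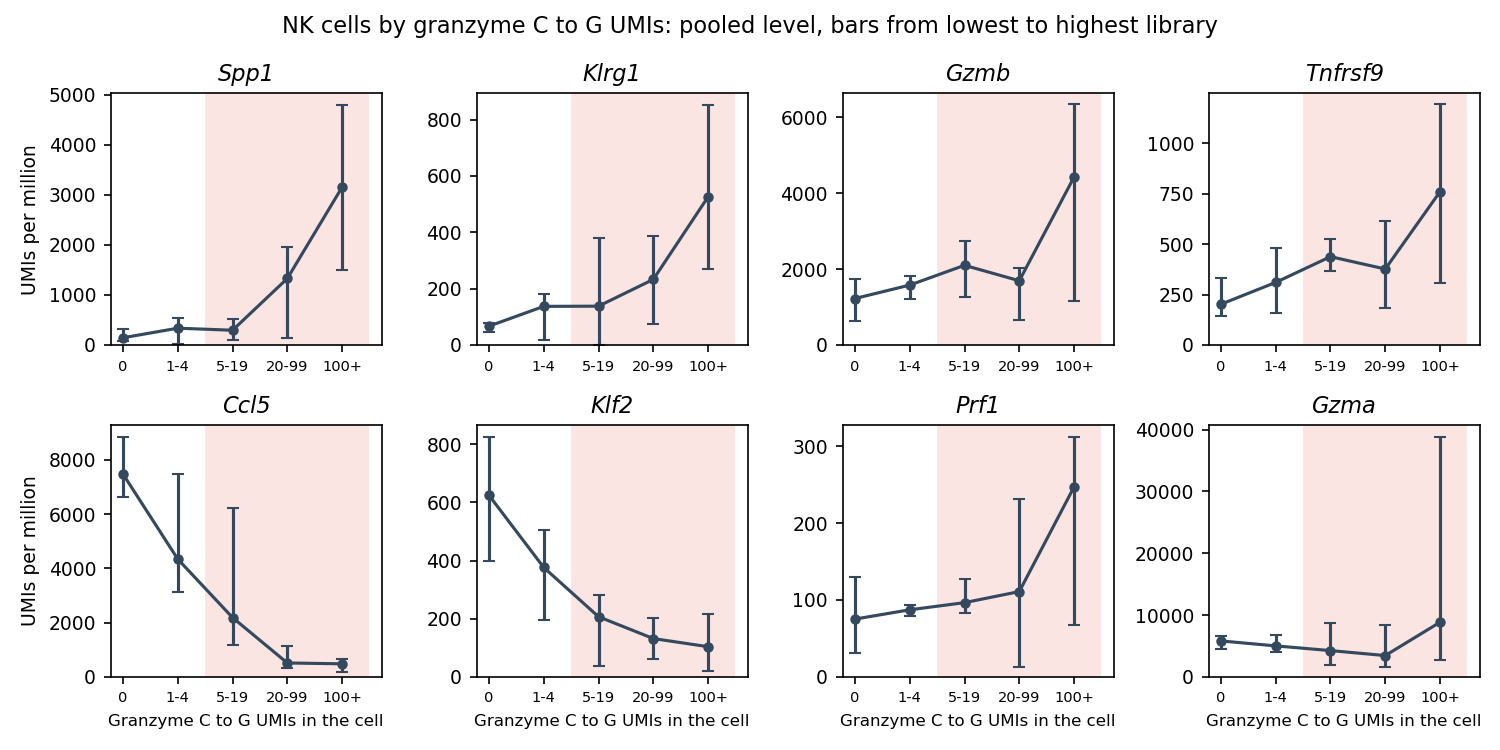
NK cells of all 4 libraries are grouped by granzyme C to G UMIs per cell (horizontal axis, shaded classes are Gzmc-high) and the pooled level of 8 genes is plotted in CPM, with bars from the lowest to the highest library. Ccl5 and Klf2 are lower in each further class, Spp1 and Klrg1 are highest at 100 or more UMIs, and Gzma is set there by the wild-type library at day 9 with 38822 CPM.

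The genes most like the granzyme sum were sought over 689 NK cells thinned to 3000 UMIs, by Spearman's rho averaged over the 4 libraries and 3135 genes found in at least 10% of cells. Spp1 came first (mean rho 0.36, from 0.29 to 0.47), followed by AA467197 (0.31), the actin-capping protein Capg (0.27), the surface protein Thy1 (0.27), Pglyrp1 (0.26), Gapdh (0.25), Bcl2a1b (0.25), Tnfrsf9 (0.25), S100a4 (0.24) and Tmsb10 (0.21). Ccl5 had the lowest value (-0.35), and Ms4a4b was at -0.25. The cells of a library share its preparation and the values are a description of weak to moderate order.

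Differences by genotype and day were asked of the 4 Gzmc-high sums in an additive fit, which has 1 residual degree of freedom and tests a difference common to both days or both genotypes. Mir155hg, the host transcript of miR-155, had 1, 1, 3 and 4 UMIs, too few to check the labels, and a 3' read of it need not report the deletion. Of 4365 genes tested, 1 was higher (0.0229%) and 1 lower (0.0229%) in knockout hosts by edgeR, 91 had an unadjusted p under 0.05, and DESeq2 also gave 1 and 1. Rpl29, a ribosomal protein gene on chromosome 9, was at 2336 and 2517 CPM in wild-type and 171 and 255 CPM in knockout libraries (log2 difference -3.55, edgeR adjusted p = 0.0071). Gm10709, a processed pseudogene on the same chromosome, was at 5.47 and 15.3 against 1249 and 1559 CPM (6.87, edgeR adjusted p = 0.0011).

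These 2 genes cannot be counted apart with certainty. The Gm10709 transcript is 99.2% identical to Rpl29 over 480 bases and shares 243 of its 421 windows of 60 bases with it. The same shift was seen outside the NK gate, where Rpl29 stood at 2041 and 1595 CPM in wild-type and 130 and 162 CPM in knockout libraries. No gene list had a gene that passed by genotype, and Ifngr1 and the other reported miR-155 targets gave 0 of 12.

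Between the days, 0 of 4365 genes passed in either direction (0% higher, 0% lower) by edgeR and 0 by DESeq2, and 280 had an unadjusted p under 0.05. The naming rule gave no gene by day, so Klf2 and Tmsb15a are given as examples only. Klf2 went from 38.3 and 51.6 CPM in the earlier to 161 and 171 CPM in the later libraries. Tmsb15a was at 241 and 63.5 CPM before and 27.2 and 18.1 CPM after. In each case the days did not overlap, but the gene was not past the threshold. With so few libraries per day, non-overlap is common by chance. The share of all genes without overlap was not counted, so no difference by day is read from these values. The labels name no preparation run. With 1 pooled library per group, a difference of day or of genotype cannot be told apart from one of preparation.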

How the data were processed

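Per the submitters' processing notes, the authors made the deposited counts, raw UMI counts per gene and barcode, with Cell Ranger 2.0.2 on mm10. The annotation release is not given in the sources used here. Each group is 1 library. The files pair 27998 gene IDs with symbols.

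From these counts, UMIs were summed per library over each class of cells and tested with edgeR 4.0.16 (TMM, filterByExpr, quasi-likelihood, library as block, Benjamini-Hochberg over all genes tested, threshold 0.05), with DESeq2 1.42.0 as an alternative, under R 4.3.3. The 13 genes of the selection were not tested, nor Klra genes where cells were split by Ly49. Named genes were the 15 with the largest difference in each direction among those past the threshold, at 50 CPM or more in the higher group and with one direction in all libraries, together with list members of lowest p. Doublets were scored with Scrublet in scanpy 1.11.5, whose own threshold called 3, 6, 1 and 22 barcodes, so the top scores at 0.8% per 1000 barcodes (25, 112, 109 and 34) were removed in an alternative only. Intervals are exact 95% Clopper-Pearson. Sequences are from RefSeq, GRCm38.p6, and positions and transcripts from GENCODE M21. The code was tested on simulated data. The cells and gene lists were chosen with earlier results of these data known. P-values of the class comparisons measure how the difference within a library varied over 4 pooled libraries of different genotype and day. They do not measure the spread between mice. Those of the genotype and day fits rest on 1 residual degree of freedom. Some genes counted in the lists are not reported here by name.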

Additional observations from a re-analysis of the deposited data

Results flagged for a closer look

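Inpp4b, a lipid phosphatase gene expressed in ILC1, was higher in Gzmc-high than in granzyme-low NK cells of both knockout libraries and lower in both wild-type libraries. The mean log2 ratio was 1.54 in knockout and -2.29 in wild-type libraries. Gm10709, the pseudogene whose reads cannot be told with certainty from those of Rpl29, went the same way, with 0.309 in knockout and -1.30 in wild-type libraries. For Gm10709 the wild-type ratio was -2.56 at day 9, where Gzmc-high cells had 5.47 CPM and 3 UMIs amount to 16.4 CPM. At day 12 it was -0.04 (15.3 against 15.8 CPM), close to no difference. Both genes were singled out because every library of one genotype moved opposite to every library of the other. Neither difference was tested, Inpp4b rested on 34 UMIs in the Gzmc-high cells, and 1 of them came from the wild-type libraries.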

How the results depend on the processing

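The comparison of Gzmc-high with granzyme-low NK cells gave 426 genes, 236 with DESeq2, 880 with every gene having at least 1 UMI, 132 after thinning to 3000 UMIs, 264 without cells holding T cell or macrophage gate UMIs and between 50 and 519 when 1 library was left out. Against Ly49-negative cells the 258 genes became 136, 519 and 35 under the first 3 of these and 64 to 227 with 1 library left out. Against Ly49-positive cells the 405 genes became 201, 759 and 152, and 119 to 567. Leaving out the library as block (no replicate block) gave 152, 149 and 132 genes. No pairing by replicate number was possible because the labels give none, so the block is the library itself. By genotype the 2 genes became 25 without a filter and 7 after thinning, and by day the 0 genes became 45 and 2. Of the 30 genes named by rule against granzyme-low cells, 0 reversed direction, and Spp1, Ccl1, Ccl5, Klf2, Klrg1, Nrgn, AA467197, Ccdc184, Gadd45g, Gm26740, Icam2 and Klra4 passed in all 15 alternatives. Of other genes described with a difference from granzyme-low cells, Ccl3, Ccl4, Ifng and Serpinb9b changed sign after thinning, and Gzma changed sign in 5 of 15 alternatives.

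The share of NK cells that were Gzmc-high moved outside its interval in these cases: 2.17% (wild-type day 9), 4.49% (wild-type day 12) and 11.04% (knockout day 12) with thinning to 2000 UMIs before the gate, 6.42% (knockout day 9) and 16.6% (knockout day 12) with thinning to 3000, 6.10% (knockout day 9) with the granzyme sum alone thinned, and 8.95% (wild-type day 12) with at least 10 granzyme UMIs. Of all kept cells the corresponding shares were 0.113%, 0.327% and 0.884% with 2000 UMIs, joined by 0.375% (knockout day 9), 0.324%, 0.684% (wild-type day 12) and 1.40% with 3000, 0.351% and 0.926%. The causes were not tested, although thinning leaves fewer UMIs and cells. Small classes limit all of it, since 3 UMIs amount to 16.4 CPM in the 17 Gzmc-high cells of the wild-type library at day 9 and to 4.18 CPM in the 56 of the knockout library at day 12.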

Other observations

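Cells outside the NK, CD8 T cell and macrophage gates also carried 5 or more UMIs of the 5 granzymes. There were 34 such cells in the wild-type library at day 9, 8 in the knockout library at day 9, and 28 and 20 in the wild-type and knockout libraries at day 12. In the wild-type library at day 9, 30 of the 34 had at least 2 UMIs of Cd3d, Cd3e and Cd3g, and 29 of these 30 also had Ncr1. That share with Ncr1 is largely set by the gates and is no finding. The CD8 T cell gate takes only cells without Ncr1, and 63 of its cells in that library had 5 or more granzyme UMIs. The 30 cells held 4183 UMIs of the 5 granzymes, compared with 1814 in all 161 cells of the NK gate in that library. In the other libraries 3, 13 and 14 cells had both Ncr1 and at least 2 Cd3 UMIs. The limit of 1 Cd3 UMI in the selection therefore leaves out cells with the same granzymes, most of all in the wild-type library at day 9, where the NK gate held 19.5% of the granzyme UMIs.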
